A study of Mus musculus with 34 samples.

Results

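The genes described are those of the mitochondrial respiratory chain and the ATP synthase: the protein-coding rows whose symbols name a subunit of NADH dehydrogenase (complex I, Nduf), succinate dehydrogenase (complex II, Sdh), the cytochrome bc1 complex (complex III, Uqcr), cytochrome c oxidase (complex IV, Cox), the ATP synthase (Atp5) or an mRNA of the mitochondrial genome (mt-). The rule reads symbols and no measured value. Together they number 97, of which 84 are nuclear and 13 are mitochondrially encoded. Members made up 97 of the 46528 genes measured in mixed-strain tumors, 92 of 16140 in FVB tumors and 88 of 14074 in Rag1-/- livers, and 88 were measured in all of them. By the prefix of the symbol, 37 belong to complex I, 4 to complex II, 8 to complex III, 18 to complex IV and 17 to the ATP synthase. The rule also takes in Ndufa4 and Ndufa4l2, whose human proteins sit on complex IV, and Atp5s and Atp5sl, which carry an ATP synthase symbol without being subunits of the enzyme.

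The respiratory chain moves electrons from NADH and succinate to oxygen and pumps protons across the inner mitochondrial membrane, and the ATP synthase lets them flow back to make ATP. Complexes I, III, IV and the ATP synthase mix subunits from nuclear genes with subunits from the small circular mitochondrial genome, whereas every subunit of complex II is nuclear. The mitochondrial mRNAs are cut from long transcripts of the whole circle, so their levels are usually read as a group. Hepatocytes are rich in mitochondria, and MYC is known to drive many mitochondrial genes.

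All animals carried a MYC transgene under a liver-driven tetracycline switch (LAP-tta with TRE-MYC), and the tumors grew after doxycycline was withdrawn and were taken at death. Mixed-strain tumors (C57/B6, 129 and FVB) came from 8 Het libraries (Arid1afl/+ with Alb-cre) and 8 WT libraries (Arid1aflfl without Cre), all at about 90 days. FVB tumors came from 4 Homo libraries (Arid1afl/fl with Alb-cre, about 100 days), 4 Het libraries (Arid1afl/+ with Alb-cre, about 70 days) and 4 WT libraries (Arid1aflfl without Cre, about 55 days). Alb-cre acts in hepatocytes and their precursors, so other cells of a tumor keep Arid1a. The livers came from Rag1-/- FVB mice with the MYC transgenes and intact Arid1a, at about 42 days and 14 days after an adenovirus, with 3 ad-ARID1A libraries (human ARID1A) and 3 ad-Cre libraries. The labels' descriptions of the ad-ARID1A samples name ad-Cre columns, against their titles, so the columns were matched by the titles and the column number. No WT tumor had Cre and all Het and Homo tumors did, FVB tumors that had lost more alleles came from older mice, and virus-borne Cre was given to the ad-Cre livers alone, so Cre, age and virus cannot be told apart from Arid1a dose in those comparisons. Whether each library came from a separate mouse is not stated in the labels, so p-values measure the spread between these libraries only.

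Depth here means the total of reads behind the CPM values of a library, read from the steps between low values. Reads lost or removed before that total are not seen. It lay between 2.28 and 5.28 M reads a library for mixed-strain tumors, between 6.64 and 12 M for FVB tumors and between 8.72 and 10.6 M for Rag1-/- livers. Arid1a itself ran from 250 to 330 CPM (reads scaled to a common library total) in mixed-strain Het against 314 to 490 CPM in WT. In FVB it ran from 172 to 256 CPM in Homo and 185 to 292 CPM in Het against 212 to 311 CPM in WT, and in the livers from 111 to 149 CPM after ad-ARID1A against 114 to 116 CPM after ad-Cre. These values count the whole gene, including exons outside the deleted part, and mouse reads do not check the human transgene. Hepatocyte markers were present in every group, with all 8 listed genes in each table. In bulk tissue, fewer cells of a type and less RNA per cell cannot be told apart.

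Of the mitochondrial genes, 7 have stretches that are also annotated as pseudogenes on chromosome 1 in GRCm38, and these are shown first because a read from such a stretch cannot be placed on a single gene. The copies of mt-Co2, mt-Atp6, mt-Co3, mt-Nd3 and mt-Nd4l covered 99 to 99.9% of each gene and were 100% identical over the aligned bases, except for mt-Nd3, whose copy Gm28438 differed at a single base (T3C, counted from 1 at the start of mt-Nd3) and was 99.71% identical. The copy of mt-Nd4 covered 63.6% of the gene and that of mt-Co1 covered 31.8%. Genes mt-Nd1, mt-Nd2, mt-Nd5, mt-Nd6, mt-Cytb and the short mt-Atp8 had no such annotated copy in this cluster. The first 90 bases of 2 pairs, from the GENCODE transcripts of that build, read as follows, with the differing base in capitals (mt-Co2 at chrM:7013-7102 on the plus strand and Gm28661 at chr1:24615476-24615565 on the minus strand, mt-Nd3 at chrM:9459-9548 on the plus strand and Gm28438 at chr1:24613030-24613119 on the minus strand).
mt-Co2: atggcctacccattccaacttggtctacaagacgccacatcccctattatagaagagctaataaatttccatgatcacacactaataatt
Gm28661: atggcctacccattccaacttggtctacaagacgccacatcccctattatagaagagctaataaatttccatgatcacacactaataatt
mt-Nd3: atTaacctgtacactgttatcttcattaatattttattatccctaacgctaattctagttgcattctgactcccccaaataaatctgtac
Gm28438: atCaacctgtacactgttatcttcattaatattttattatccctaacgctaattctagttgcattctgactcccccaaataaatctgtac

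Across the libraries the mitochondrial mRNAs fell into 2 sets. The neighbours mt-Co2, mt-Atp8, mt-Atp6, mt-Co3, mt-Nd3 and mt-Nd4l, which encode subunits of complex IV, the ATP synthase and complex I, swung between libraries of the same group. Their values spanned 4.07 to 7.31 on the log2 scale over the mixed-strain libraries, 5.34 to 7.98 over FVB and 4.81 to 5.58 over the livers. The division was made after their values were seen. Among these 6 are mt-Co2, mt-Atp6, mt-Co3, mt-Nd3 and mt-Nd4l, whose annotated copies cover nearly the whole gene. So is mt-Atp8, which has no annotated copy. The genes mt-Nd4 and mt-Co1, which have partial copies, were among the steady ones. Whether the copies bear on the division was not tested. The other 7, mt-Nd1, mt-Nd2, mt-Co1, mt-Nd4, mt-Nd5, mt-Nd6 and mt-Cytb, spanned 0.9 to 1.17, 1.07 to 1.68 and 0.35 to 0.5 on the same scale. They are called steady only beside the 6. In FVB the median SD of these 7 was 0.41, against 0.33 for all genes and 0.18 for nuclear members. It was 0.30 against 0.47 for all genes in the mixed-strain libraries and 0.15 against 0.24 in the livers.

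**Figure D1:**
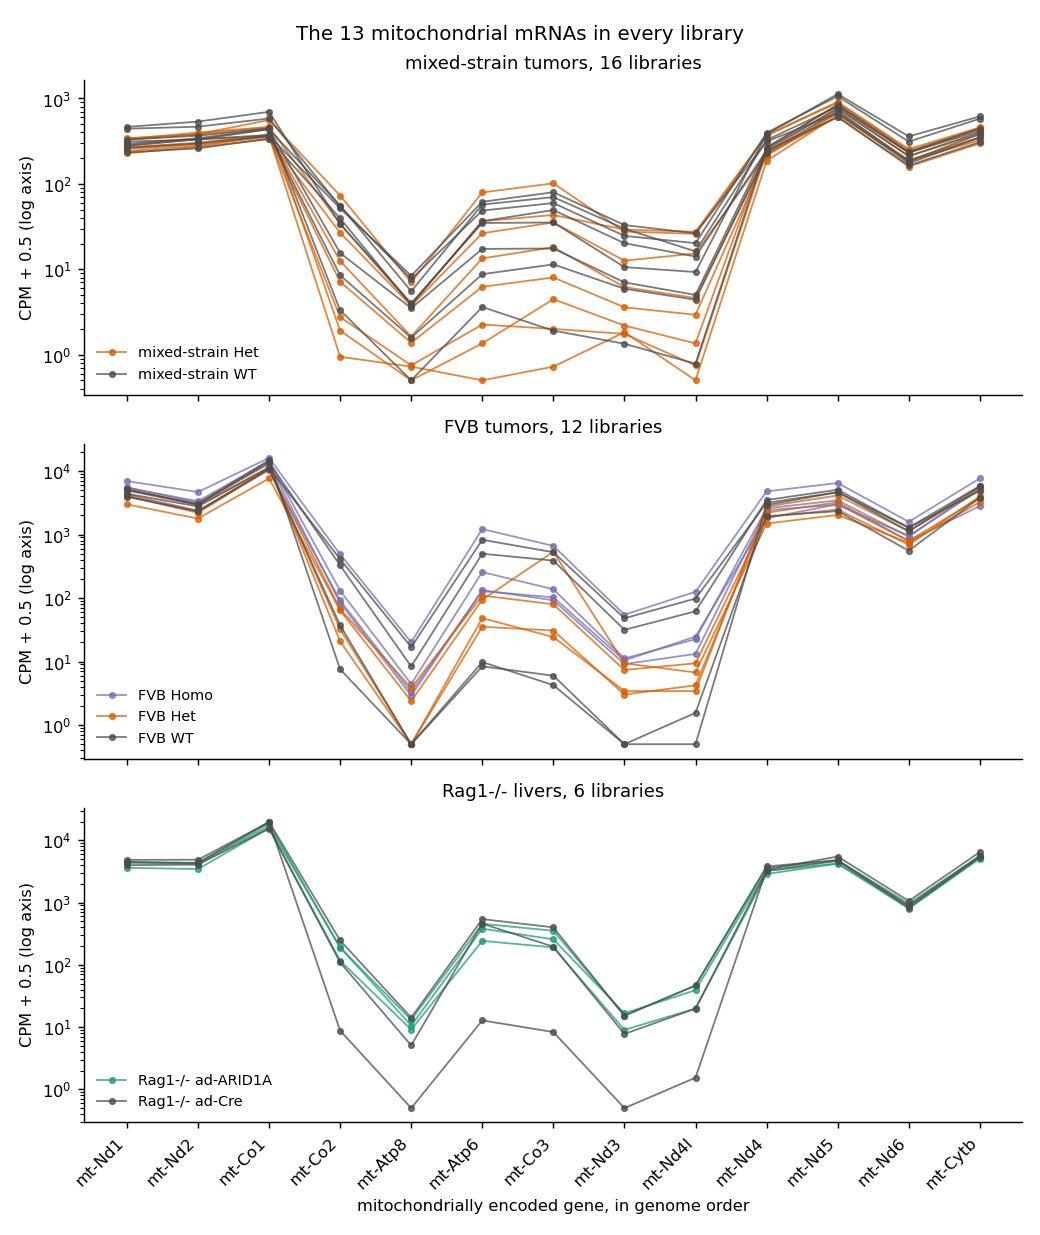
Level of each of the 13 mitochondrial mRNAs (CPM + 0.5, log axis) in every library, with genes in the order they lie on the mitochondrial genome and 1 line a library, coloured by group. The 6 genes from mt-Co2 to mt-Nd4l are lower and more spread out than the flanking genes in all 3 sets of libraries.

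In FVB tumors mt-Co2, the second subunit of cytochrome c oxidase, had 488, 130, 91.1 and 83.9 CPM in Homo and 31.8, 20.4, 66.7 and 63.6 CPM in Het, against 326, 7.06, 36.8 and 410 CPM in WT. The WT libraries alone held both the lowest value and 2 of the 3 highest. In the livers it had 189, 190 and 116 CPM after ad-ARID1A, against 109, 8.28 and 246 CPM after ad-Cre, so a single ad-Cre library lay far below the other 5. In the mixed-strain tumors mt-Atp6, a subunit of the proton channel of the ATP synthase, ran from 0 to 78.9 CPM in Het (median 9.33) and from 3.11 to 61.2 CPM in WT (median 35.1). Summed CPM over the 6 was 2.22 to 311 in mixed-strain Het against 8.46 to 258 in WT. It was 333 to 2566 in FVB Homo and 97.8 to 708 in FVB Het against 20.5 to 1924 in FVB WT, and 585 to 1069 after ad-ARID1A against 29.4 to 1260 after ad-Cre. The 6 did not always move together: in FVB Het 4 mt-Co3 had 534 CPM of the 708, and in FVB WT 3 mt-Co2 had 36.8 CPM while mt-Co3 had 3.76 CPM. The 5 annotated chromosome 1 copies of this stretch had narrower ranges. Their summed CPM was 2.48 to 7.03 in mixed-strain Het against 1.88 to 4.8 in WT, 66.4 to 102 in FVB Homo and 60.3 to 97.7 in FVB Het against 61 to 96.3 in FVB WT, and 33.6 to 45.7 after ad-ARID1A against 37.5 to 40.7 after ad-Cre. The sources used here do not say how reads that match both a gene and its copy were assigned, and the part of these copies in the swing was not tested. No annotated transcript shares a 50-base word with mt-Atp8, but copies that are not annotated were not searched for.

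Per length, the median mitochondrial gene stood above the median of each nuclear class in each table, while the 6 swinging genes lay among the nuclear ones in the mixed-strain table (14.3 to 42.3 CPM per kb). The median mitochondrial gene had 204 CPM per kb of exon in the mixed-strain table, 1900 in FVB and 1740 in the livers. The median nuclear gene had 42.6, 23.7 and 19.9 CPM per kb for complex I, 76.2, 51.2 and 71.1 for complex II, 85, 59.6 and 49.6 for complex III, 33, 53.7 and 48.6 for complex IV, and 57.7, 47.6 and 28.2 for the ATP synthase, in the same order of tables. Highest per kb were mt-Nd5 at 433 in the mixed-strain table and mt-Co1 at 7818 in FVB and 11382 in the livers. The highest nuclear members per kb were Atp5o at 230 in the mixed-strain table, Atp5a1 (the catalytic-head alpha subunit) at 336 in FVB and Cox6a1 at 239 in the livers. Length here is that of all annotated exons of a gene merged, so levels per kb depend on the annotation. For Atp5o it is 530 bases, and 63% of its 50-base words also occur in other annotated genes. Tables were normalized separately, so these levels describe each table and no difference between tables was tested.

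**Figure D2:**
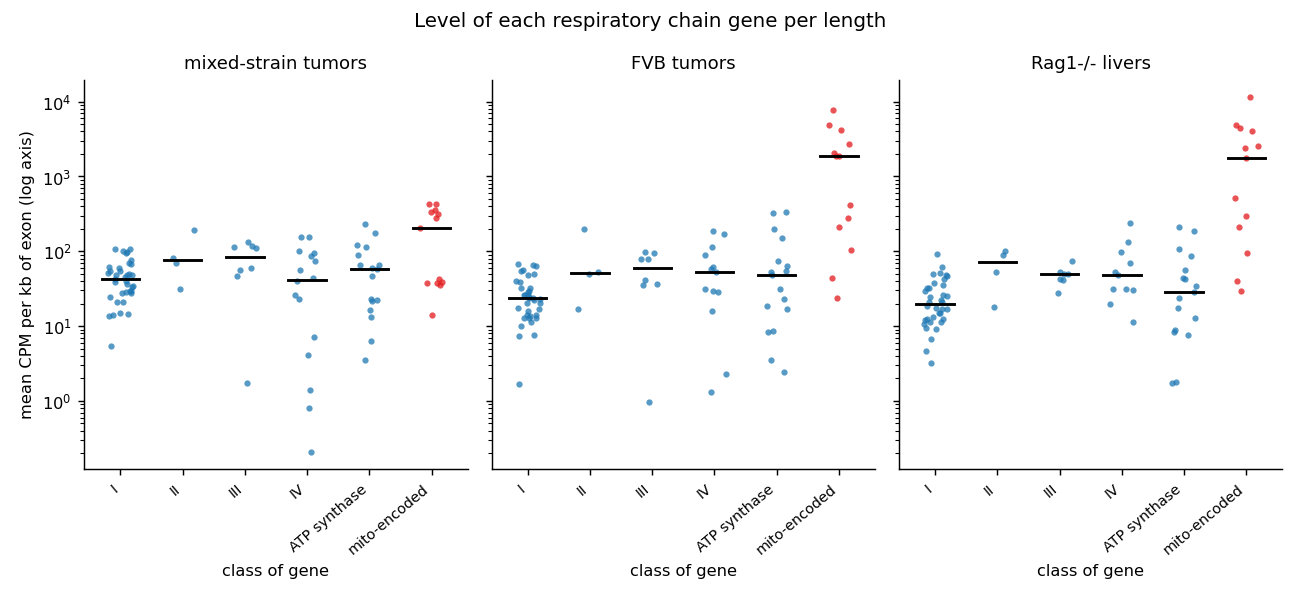
Mean level over the libraries of each table per kb of exon (log axis), 1 point a gene, by class, with the median as a line; 2 complex IV genes at 0 in the mixed-strain table are not drawn. Mitochondrially encoded genes have the highest median in all 3 tables, at 204 CPM per kb in mixed-strain tumors, 1900 in FVB tumors and 1740 in livers.

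The 13 mitochondrial mRNAs took 0.222 to 0.355% of all CPM in mixed-strain Het and 0.231 to 0.431% in mixed-strain WT. They took 2.58 to 5.07% in FVB Homo, 2.06 to 3.27% in FVB Het and 2.58 to 3.88% in FVB WT, and 3.63 to 4.17% after ad-ARID1A and 3.84 to 4.56% after ad-Cre. In reads, the 7 steady genes stood at 0.607 to 1.82 reads per base in every mixed-strain library, against 7.12 to 115 in FVB and 13.9 to 134 in the livers. Over the mixed-strain libraries mt-Nd6 kept to 1.51 to 1.64 reads per base and mt-Nd5 to 1.41 to 1.82, while depth ran from 2.28 to 5.28 M reads, so that their share was lower in the deeper libraries.

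Cox4i1, the regulatory subunit of cytochrome c oxidase that most tissues use, had 520 to 597 reads in each of the 16 libraries whatever the depth. Its level ran from 110 to 170 CPM in Het and from 114 to 228 CPM in WT. Over the 16 libraries the log2 level of mt-Nd5 followed depth with Pearson's r of -0.98 and Spearman's rho of -0.96, and that of Atp5a1 with r of -0.99 and rho of -0.98 (permutation p = 2e-05 each, the smallest that 100000 resamples can give, adjusted p = 6e-05 over 6 relations). Within Het r was -0.97 for mt-Nd5 and -0.99 for Atp5a1, within WT it was -0.99 and -1, and without the 2 libraries farthest in depth, WT 1 and WT 2, it was -0.97 and -0.98. A level in CPM has depth in its denominator, so the measures are not independent. The mitochondrial and nuclear genes highest in CPM in the other tables were mt-Co1 and Atp5b. In FVB r was 0.25 for mt-Co1 and 0.36 for Atp5b (permutation p = 0.425 and 0.249), and rho was 0.27 and 0.26 (permutation p = 0.395 and 0.411). In the livers r was 0.07 and 0.36 (exact permutation p = 0.936 and 0.5), and rho was -0.37 and 0.77 (exact permutation p = 0.497 and 0.103). Without the 2 libraries farthest in depth r was 0.16 and 0.22 in FVB and -0.77 and 0.79 in the livers, the adjusted p of these 4 relations ran from 0.206 to 0.936, and the groups are too small for values within groups.

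**Figure D3:**
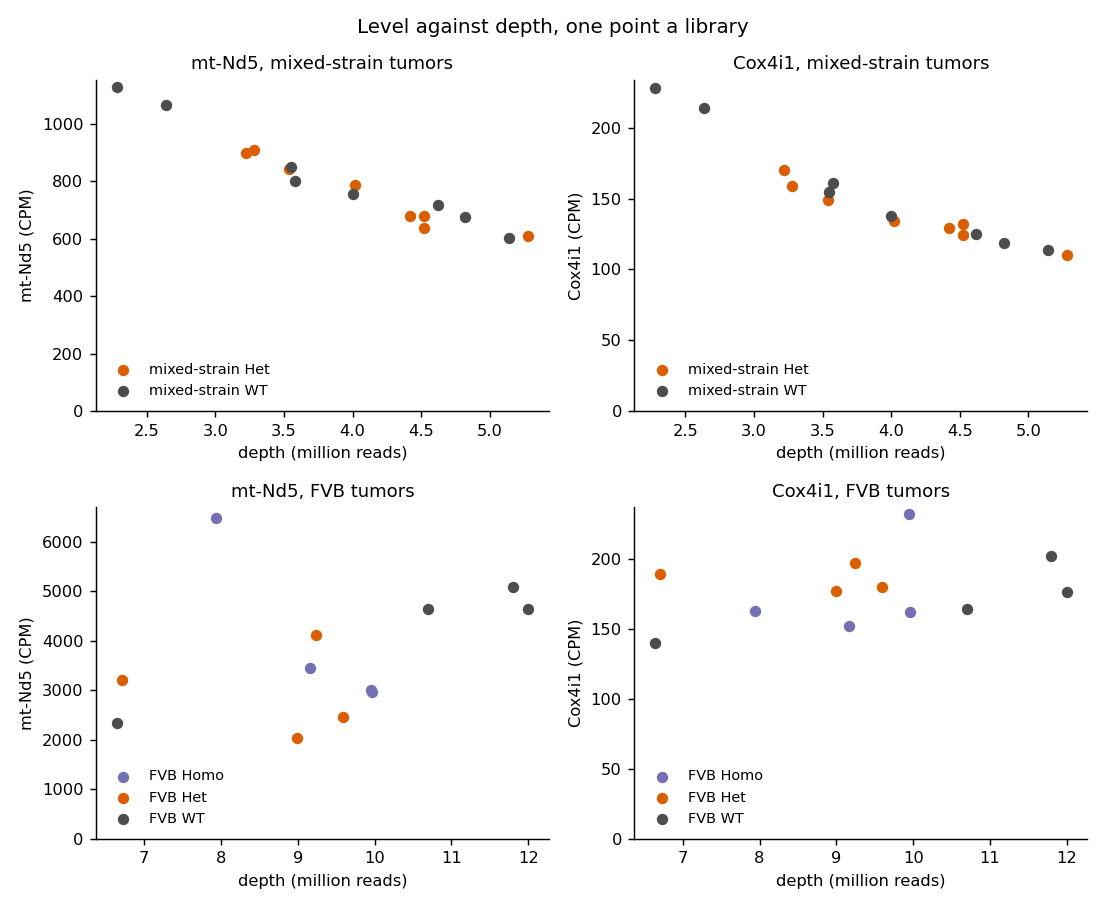
Level of mt-Nd5 and of Cox4i1 (CPM) against depth (M reads) in the mixed-strain libraries (top) and the FVB libraries (bottom), 1 point a library, coloured by group. In the mixed-strain libraries Het and WT points lie along the same falling line for both genes, and the 2 shallowest libraries, both WT, are the highest.

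Members with more reads per base followed depth more closely there. Among members with a median of at least 5 CPM and leaving out the 6 swinging mitochondrial genes, the 28 with the most reads per base (0.335 to 1.65) had a median change of -0.69 log2 CPM per doubling of depth, and for 14 of them the correlation of level with depth was below -0.9. The 27 in the middle (0.163 to 0.299 reads per base) had a median of -0.45, and the 28 with the fewest (0.0138 to 0.154) a median of -0.39. In FVB the medians of the same 3 bins were 0.23, 0.20 and 0.12, and in the livers 0.22, 0.10 and 0.31.

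In the mixed-strain tumors most respiratory chain genes lay lower in Het than in WT, and none of them passed the test (0 of 94 by limma), against 28 of 17552 genes (0.160%). Unadjusted, 17 members had p under 0.05, all 17 lower in Het, a share of 18.1% of members against 7.50% of all genes that were lower at that threshold and 15.8% in either direction. Of 81 nuclear members 76 lay lower, with a median log2 fold change of -0.18, whereas 43.9% of all genes lay lower and their median was 0.05. No member had groups that did not overlap, against 0.137% of all genes. The median was -0.22 for complex I, -0.18 for complexes II, III and IV, and -0.17 for the ATP synthase. All 13 mitochondrial genes lay lower, with medians of -0.15 for the 7 steady genes and -1.16 for the 6 swinging ones. In reads per base, which are not scaled to depth, mt-Nd5 averaged 1.66 in Het and 1.64 in WT. For mt-Co1 these means were 1.05 and 1.07. The depth settings below give medians for the nuclear members only.

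Depth moved with these values. The Het libraries had 3.22 to 5.28 M reads (median 4.22) and the WT libraries 2.28 to 5.14 M (median 3.79), and the shallowest, WT 1 and WT 2, had the highest nuclear share, 0.971% and 1.02% of all CPM, against 0.633 to 0.82% in Het. Without these 2 libraries the nuclear median was -0.09, with 70 of 81 lower, and 2 members were lower and 1 higher at unadjusted p under 0.05, against 6.97% of all genes lower and 12.8% in either direction. With log2 depth as a covariate the median was -0.14, with 75 of 81 lower and 16 members lower at that threshold, against 7.17% of all genes. Libraries weighted by limma's array weights gave -0.08, with 3 members lower and 1 higher, against 8.21% of all genes lower and 16.6% in either direction. Libraries centred on their medians gave -0.24, with 77 of 81 lower and 26 members lower, against 9.13% of all genes. Both depth settings were chosen after the data were seen. Summed hepatocyte markers were 2331 to 5474 CPM in Het against 4659 to 10733 in WT, neutrophil markers 3.04 to 29 against 8.92 to 138, macrophage and Kupffer markers 73.8 to 178 against 99 to 464, and erythroid markers 6.24 to 280 against 20.1 to 298 (5 to 8 genes a list, all in the table). Biliary and progenitor markers went the other way by median, at 5.09 to 478 CPM in Het (median 43.7) against 6.8 to 183 (median 25). So did T and NK markers, at 6.51 to 20.8 CPM (median 12.7) against 1.5 to 17.1 (median 9.5). Fat markers had medians of 33.3 CPM in Het and 26.1 CPM in WT, and the remaining lists had lower medians in Het. The part of these cell types in the difference was not tested.

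Of the 17 members, 11 were subunits of complex I. The smallest p belonged to Ndufv3, a small accessory subunit of its NADH-oxidizing module, which ran from 43.3 to 62.1 CPM in Het (median 59.4) and from 59.1 to 109 CPM in WT (median 74.1). The ranges overlap only between 59.1 and 62.1 CPM. Its log2 fold change was -0.46 ± 0.14 (SE, limma adjusted p = 0.151). For complex II it belonged to Sdhc, a membrane anchor subunit, at 79.4 to 105 CPM in Het (median 94.7) and 95.3 to 122 CPM in WT (median 106), a log2 fold change of -0.20 ± 0.09 (adjusted p = 0.284). For complex III it was Uqcr11, a small accessory subunit, at 52.4 to 78.9 CPM in Het (median 60.5) and 61.2 to 125 CPM in WT (median 70.6), -0.36 ± 0.16 (adjusted p = 0.292). Its 2 highest libraries were WT 1 and WT 2, the shallowest. For complex IV it was Cox7a2 at 63 to 83.4 CPM in Het (median 73.3) and 68.1 to 114 CPM in WT (median 82.8), -0.22 ± 0.12 (adjusted p = 0.385). For the ATP synthase it was Atp5j, coupling factor 6 of the stalk, at 58.3 to 73.5 CPM in Het (median 66) and 65.3 to 99.4 CPM in WT (median 74.6), -0.27 ± 0.10 (adjusted p = 0.226). For the mitochondrial genes it was mt-Atp6, described above, at -1.70 ± 0.92 (adjusted p = 0.374). For 52 of the 81 nuclear members the 95% interval of the log2 fold change lay within 0.5 of 0, and for 77 within 1.

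**Figure D4:**
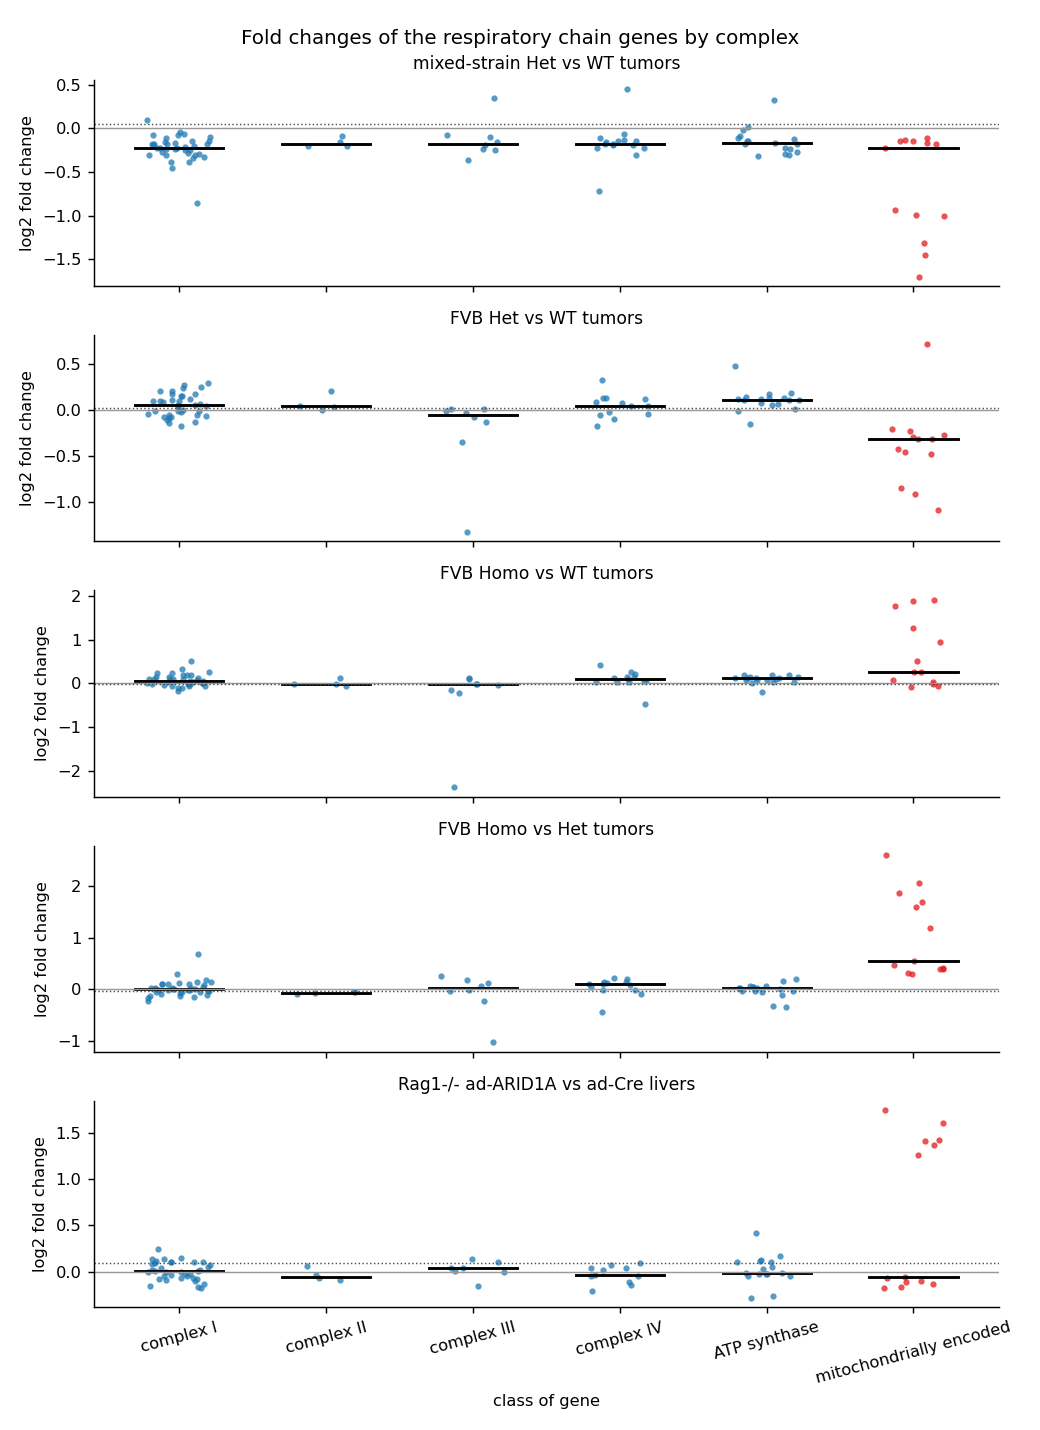
Log2 fold change of each member in the 5 comparisons, by class, with nuclear classes in blue and mitochondrially encoded genes in red; bars are medians, the solid line is 0 and the dotted line the median of all genes tested. Nuclear classes sit near -0.2 in the mixed-strain comparison and near 0 in the others, and the 6 swinging mitochondrial genes have medians from -1.16 to 1.78.

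In FVB tumors the nuclear subunits of Het, Homo and WT tumors lay close together. In Het against WT no member passed (0 of 92 by limma) against 4 of 16140 genes (0.0248%), and 2 members (2.17%) had unadjusted p under 0.05, against 14.2% of all genes. None had groups that did not overlap, against 6.88%. The nuclear median log2 fold change was 0.05, beside 0.02 for all genes, and 49 of 79 nuclear members lay higher. In Homo against WT none of 92 passed against 7 genes (0.0434%), 1 member had unadjusted p under 0.05 against 10% of all genes, and none was without overlap against 4.07%. The nuclear median was 0.07, beside -0.02 for all genes, with 58 of 79 higher. In Homo against Het none passed, and no gene of the table did (0%). There 3 members (3.26%) had unadjusted p under 0.05 against 3.86% of all genes, and 3 had groups that did not overlap against 2.67%. The nuclear median was 0.01, beside -0.04 for all genes. The comparisons share libraries, so they are not independent of each other.

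By complex, the FVB medians for Homo against WT were 0.05 for complex I, -0.02 for complexes II and III, 0.11 for complex IV and 0.12 for the ATP synthase. For Het against WT they were 0.05, 0.04, -0.06, 0.04 and 0.11 in that order. Of all 16140 genes, 7540 lay higher in Homo and 8504 in Het than in WT. For the ATP synthase, 16 of 17 genes lay higher in Homo and 15 of 17 in Het than in WT. These lay higher by at most 0.19 in Homo on the log2 scale, and both counts rest on the same WT libraries. The smallest p of this class in Het against WT was for Atp5sl, whose human protein helps assemble complex I despite its symbol. It had 28.8, 32.2, 32.7 and 25.1 CPM in Het and 24.8, 19.7, 26.4 and 22.9 CPM in Homo, against 25.3, 18.6, 18.3 and 23.9 CPM in WT. The lowest Het library lay just below the highest WT library. Its log2 fold change was 0.47 ± 0.16 in Het against WT (limma adjusted p = 0.196) and -0.34 ± 0.16 in Homo against Het (adjusted p = 1). With array weights it passed (0.52, adjusted p = 0.0232), under a setting that called 14.2% of all genes.

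Other members with the smallest p of their class did not pass either. Ndufb11, an accessory subunit of complex I, had 50.6, 59.7, 52 and 45.3 CPM in Het against 46.2, 47.5, 41.4 and 44.9 CPM in WT (log2 fold change 0.20 ± 0.11, limma adjusted p = 0.456). Sdhd, a membrane anchor of complex II, had 221, 214, 298 and 267 CPM in Homo and 258, 269, 269 and 256 CPM in Het, against 260, 226, 193 and 241 CPM in WT. The groups overlap, and its log2 fold change against WT was 0.12 ± 0.12 in Homo (adjusted p = 0.811) and 0.20 ± 0.12 in Het (adjusted p = 0.505). As each library was left out in turn these ran from 0.03 to 0.19 in Homo and from 0.12 to 0.26 in Het. Uqcrb, a small subunit of complex III, had 25.1, 34.5, 34.1 and 33.4 CPM in Het against 41.4, 44.9, 41.4 and 33.6 CPM in WT (-0.35 ± 0.16, adjusted p = 0.329). Of those WT libraries 3 stood above every Het library. Uqcrc1 had the smallest p in Homo against WT (-2.37 ± 0.85, limma adjusted p = 0.360), and first in their classes were Ndufa2 (0.32 ± 0.18), Cox8a (0.26 ± 0.14) and Atp5d (0.19 ± 0.11), with adjusted p of 0.582, 0.570 and 0.597. In Homo against Het they were Ndufb4 (0.29 ± 0.17), Uqcrq (0.26 ± 0.16) and Cox6c (0.21 ± 0.12), each with adjusted p of 1. The 95% interval lay within 1 of 0 on the log2 scale for 75 of 79 nuclear members in Het against WT, 74 in Homo against WT and 75 in Homo against Het, and within 0.5 for 60, 62 and 60.

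The steady mitochondrial genes of FVB tumors lay lower in Het than in both other groups, and none passed the test. All 7 steady genes lay lower in Het than in WT (median -0.32) and higher in Homo than in Het (median 0.40), and 4 of 7 were higher in Homo than in WT (median 0.03). mt-Nd2, a membrane subunit of complex I, had 4673, 3350, 2385 and 3169 CPM in Homo and 2288, 2896, 2195 and 1783 CPM in Het, against 2937, 3040, 2320 and 2759 CPM in WT. The libraries Homo 1, Homo 2 and Homo 4 stood above every Het and WT library, and Homo 3 lay among them. The log2 fold change in Homo against Het was 0.55 ± 0.21 (limma adjusted p = 1), and that of mt-Nd1 was 0.48 ± 0.21 (adjusted p = 1). The smallest p in Het against WT was for mt-Nd4 (-0.46 ± 0.29, adjusted p = 0.516) and in Homo against WT for mt-Atp6 (1.87 ± 1.33, adjusted p = 0.702, and 0.79 to 3.02 as each library was left out in turn). Of the swinging genes, mt-Nd4l, mt-Co2 and mt-Atp6 did not overlap between Homo and Het. mt-Nd4l had 125, 22, 24.3 and 12.7 CPM in Homo and 3.73, 2.93, 8.88 and 6.23 CPM in Het, against 61.4, 0, 1.06 and 97.7 CPM in WT, where a value of 0 means 1 CPM or less. The WT libraries spanned both, and the log2 fold change in Homo against Het was 2.61 ± 1.32 (adjusted p = 1). Leaving out each FVB library in turn moved the mitochondrial median in Homo against Het between 0.38 and 0.7.

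Markers of other cells varied between the FVB libraries, and no difference between groups was tested. Summed neutrophil markers (5 genes, all in the table) were 0 to 139 CPM in Homo (median 1.6), against 1.31 to 98.3 CPM in WT (median 24.2). They were 0 in every Het library, where each of these genes was at 1 CPM or less. Ckm, the single muscle marker in that table of 10 listed, was 0 in every Homo library and 0 to 2.33 CPM in Het, against 1.51 to 30.7 CPM in WT. Erythroid markers summed to 27.8 to 96.7 CPM in Homo and 23.3 to 26.2 CPM in Het, against 21.2 to 460 CPM in WT. Hepatocyte, macrophage, endothelial and stellate markers also had lower medians in Homo and in Het than in WT. T and NK, B and plasma, fat and pancreatic markers, each a single gene there, had higher ones. Biliary and progenitor markers had a lower median in Homo and a higher one in Het. The part of these cell types in the values above was not tested.

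In the Rag1-/- livers the nuclear respiratory chain genes of both groups lay close together. No member passed after ad-ARID1A against ad-Cre (0 of 88 by limma), against 45 of 14074 genes (0.320%), and none had unadjusted p under 0.05, against 12.5%. The nuclear median log2 fold change was 0.00, beside 0.09 for all genes, with 38 of 75 higher and 37 lower. Groups did not overlap for 3 members (3.41%) against 17.4% of all genes. These were Cox6b1, Ndufs3 and Ndufs4. Cox6b1, which joins the monomers of cytochrome c oxidase, had 35.3, 34.1 and 37.3 CPM after ad-ARID1A against 39.4, 39.7 and 38.6 CPM after ad-Cre (log2 fold change -0.14 ± 0.10, adjusted p = 0.592). Ndufs3, a core subunit of complex I, had 42.5, 42.2 and 45.9 CPM after ad-ARID1A against 48.5, 47.2 and 47.5 CPM after ad-Cre (-0.13 ± 0.09, adjusted p = 0.598). Ndufs4, an accessory subunit whose loss in humans and mice causes Leigh syndrome, had 33.1, 31.6 and 32 CPM after ad-ARID1A against 31.1, 30.3 and 28.8 CPM after ad-Cre (0.10 ± 0.10, adjusted p = 0.732). Summed hepatocyte markers were 69732 to 78952 CPM after ad-ARID1A against 76611 to 83922 CPM after ad-Cre, and stellate and fibroblast markers 454 to 537 against 269 to 491 CPM, and their part in these values was not tested.

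By complex the liver medians were 0.00 for complex I, -0.06 for complex II, 0.04 for complex III, -0.04 for complex IV and -0.01 for the ATP synthase. The smallest p of any nuclear member was for Atp5g1, a gene of the proton-carrying c ring, with 40.2, 33.6 and 36.8 CPM after ad-ARID1A against 42.5, 52 and 39.9 CPM after ad-Cre. Its groups overlapped in a single library, and its log2 fold change was -0.28 ± 0.13 (limma adjusted p = 0.409). Ndufs6, a zinc-binding subunit of complex I, was first in its class with 0.25 ± 0.14 (adjusted p = 0.528), as were Uqcrh in complex III with 0.14 ± 0.12 (adjusted p = 0.670) and Sdhd in complex II with -0.09 ± 0.09 (adjusted p = 0.742). The 7 steady mitochondrial genes all lay lower after ad-ARID1A (median -0.11) and the 6 swinging ones all higher (median 1.42). The 6 summed to 29.4 CPM in the library ad-Cre 2, against 794 and 1260 CPM in the other ad-Cre libraries. For mt-Atp8 the log2 fold change was 1.37 ± 0.73 (adjusted p = 0.483), and it ran from 0.37 to 2.26 as each library was left out in turn. For all 75 nuclear members the 95% interval of the difference lay within 1 of 0 on the log2 scale, and for 65 within 0.5.

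Where a subunit of cytochrome c oxidase has a pair of isoform genes, the form used by liver had the higher mean level per length. In the mixed-strain table this was 95.3 against 1.39 CPM per kb for Cox4i1 and Cox4i2, 156 against 0.801 for Cox6a1 and Cox6a2, 100 against 4.14 for Cox6b1 and Cox6b2, 85.7 against 7.2 for Cox7a2 and Cox7a1, and 156 against 0.21 for Cox8a and Cox8b. Cox4i1 had medians of 133 CPM in Het and 147 CPM in WT, whereas Cox4i2, the lung form induced by low oxygen, had 1.28 CPM in Het and 0.597 CPM in WT. Cox6a1 had medians of 101 CPM in Het and 111 CPM in WT and Cox7a2 of 73.3 and 82.8 CPM. Their heart and muscle partners had 0.532 CPM in Het and 0.661 CPM in WT for Cox6a2, and 4.19 and 3.63 CPM for Cox7a1. Cox6b1 had 68.1 CPM in Het and 69.3 CPM in WT, and Cox6b2, the testis form, 3.17 and 5.74 CPM. Cox8a had 89.5 and 95.5 CPM, and Cox8b was at 0 in 5 of 8 Het and 7 of 8 WT libraries. Cox8b, Cox8c and Cox7b2 were too low to be tested, and the last 2 were at 0 in all 16 libraries. In FVB and in the livers, Cox4i2, Cox6a2 and Cox8b have no row, and Cox7a1 in FVB was at 0 in 3 of 4 Homo, 1 of 4 Het and 3 of 4 WT libraries. Of these partners, the largest difference in mixed-strain Het was for Cox6b2 at -0.72 ± 0.45 (limma adjusted p = 0.446), and none passed in any table.

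Ndufa4l2, which is induced by low oxygen and can replace Ndufa4, varied widely between libraries. In the mixed-strain tumors it ran from 1.1 to 70 CPM in Het (median 4.19) and from 3.72 to 32.4 CPM in WT (median 9.69), a log2 fold change of -0.86 ± 0.71 (limma adjusted p = 0.561). Ndufa4 ran from 55.1 to 69.5 CPM in Het (median 65) and 54.7 to 105 CPM in WT (median 70.9), and the means were 14.2 CPM per kb for Ndufa4l2 and 51.1 for Ndufa4. In FVB tumors Ndufa4l2 had 0, 2.73, 7.73 and 1.4 CPM in Homo and 2.23, 0, 1.99 and 0 CPM in Het, against 1.78, 0, 2.11 and 1.97 CPM in WT. The table lists values of 1 CPM or less at 0, and the library Homo 3, at 7.73 CPM, stood above the other 11.

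A pair of other members stood out for their spread among replicates. Uqcrc1 encodes a core subunit of complex III that the complex cannot do without, yet it was near 0 in many libraries. It had 0, 1.09, 1.21 and 0 CPM in FVB Homo and 14.9, 0, 1.56 and 0 CPM in FVB Het, against 0, 9.06, 10.1 and 10.2 CPM in FVB WT. The log2 fold change in Homo against WT was -2.37 ± 0.85 (limma adjusted p = 0.360). In the mixed-strain tumors it ran from 0.569 to 30.1 CPM in Het (median 2.49) and from 0.385 to 18 CPM in WT (median 2.06), and the livers' table has no row for it. Its SD over all libraries was 1.65 on the log2 scale in both tumor tables. Its partner core subunit Uqcrc2 had an SD of 0.12 in the mixed-strain table and 0.27 in FVB, with means of 110 and 78 CPM per kb against 1.73 and 0.969 for Uqcrc1. Reference transcripts of Uqcrc1 share no 50-base word with any other annotated gene. This does not show how its reads were counted, and the reason for its low values was not tested. Cox7a2l, named here after its values were seen, builds supercomplexes of complexes III and IV. It ran from 48.5 to 129 CPM in mixed-strain Het (median 66.3) and 54.7 to 122 CPM in WT (median 75.9). In FVB it had 31.3, 35, 36.3 and 38.9 CPM in Homo and 75.1, 42.8, 56.9 and 28.4 CPM in Het, against 37.8, 77.2, 60.5 and 32.2 CPM in WT. The Homo libraries lay close together, while 3 Het and 2 WT libraries lay above all of them and 1 Het library below (Homo against WT -0.47 ± 0.29, adjusted p = 0.647).

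**Figure D5:**
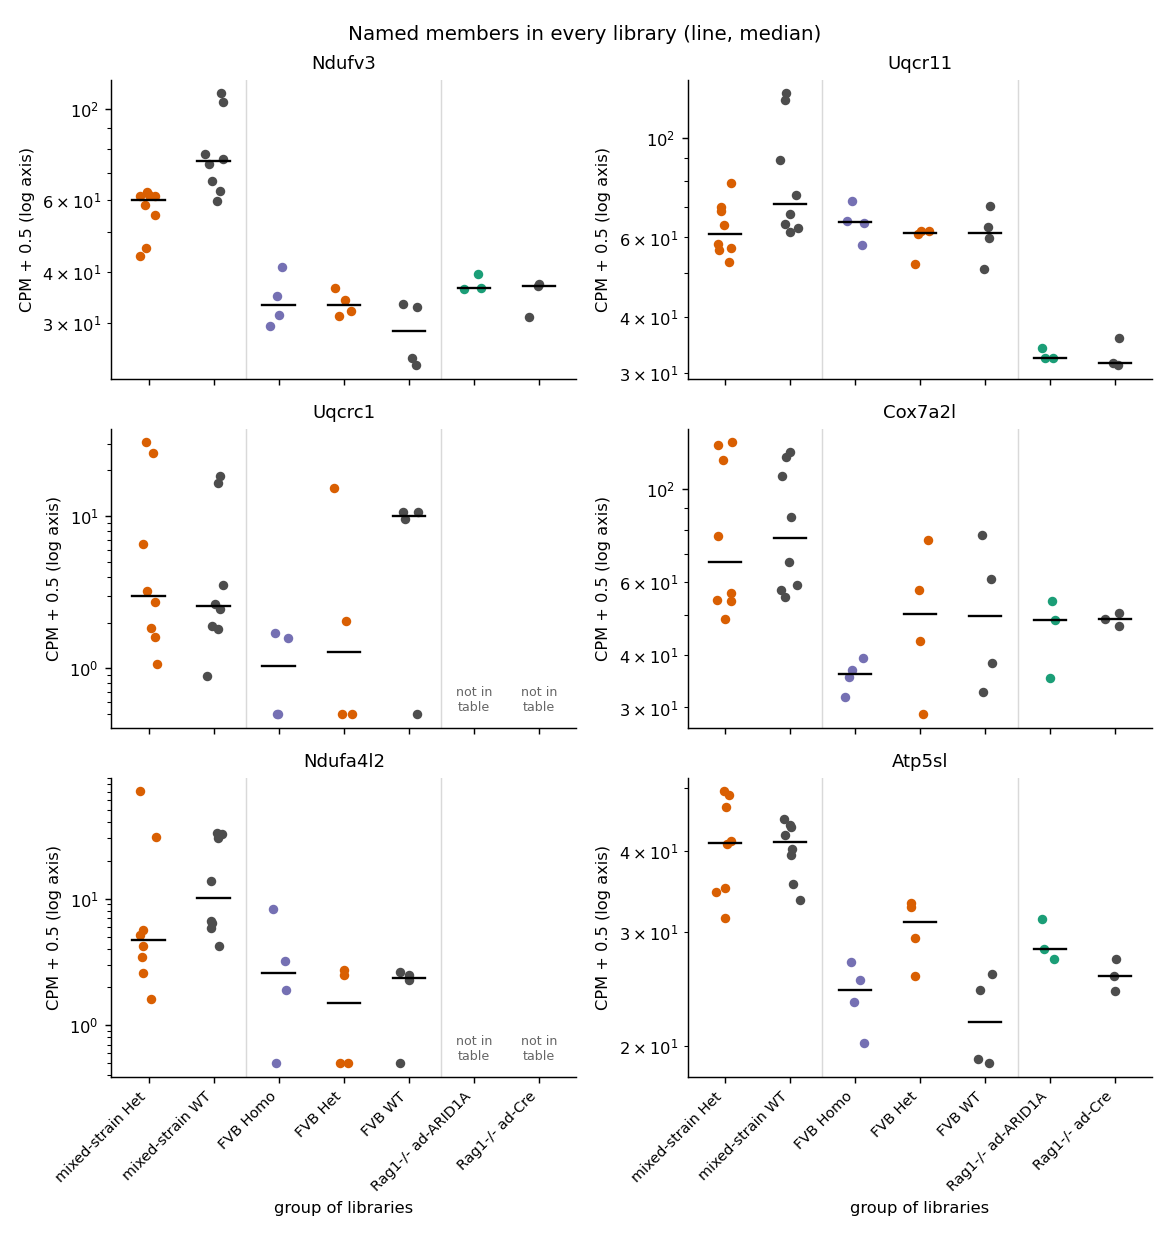
Level (CPM + 0.5, log axis) of 6 named members in every library, by group, with the group median as a line; "not in table" marks genes without a row in the Rag1-/- table. Uqcrc1 spreads widely within the Het and WT groups, and Cox7a2l spreads within FVB Het and WT more than within Homo. Ndufv3 runs from 43.3 to 62.1 CPM in mixed-strain Het and from 59.1 to 109 CPM in mixed-strain WT.

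Some members share sequence with other genes, which makes their counts uncertain. Of 84 nuclear members, 7 share over 20% of their 50-base words with other annotated genes, summed over those genes. The gene that shares most is the overlapping Donson for Atp5o, Tssk6 for Ndufa13, Smim27 for Ndufb6, BC002163 for Ndufs5, Gm10175 for Atp5g2, Gm10012 for Cox7c (15.3% alone) and Gm16089 for Uqcrb (16% alone). The median nuclear member shares 1.14%. The sources used here do not say whether strand was used in counting.

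Other mitochondrial genes were read from 6 lists. No gene of any list passed in any of the 5 comparisons by limma. In the mixed-strain tumors, genes of mitochondrial DNA transcription and RNA handling lay higher in Het in 23 of 30 (median log2 fold change 0.17). The list of pyruvate dehydrogenase and the citric acid cycle lay lower in 16 of 22 (median -0.11). The mitochondrial ribosome was evenly divided, 40 higher and 35 lower (median 0.01), and assembly factors were 21 higher and 25 lower (median -0.01). Electron carriers and feeders were lower in 10 of 12 (median -0.15), and the nuclear regulators higher in 8 of 13 (median 0.05). At unadjusted p under 0.05 these lists held 1, 4, 0, 0, 0 and 6 genes, in the order just given, against 15.8% of all genes. The 4 were 1 higher and 3 lower, and the 6 were 3 higher and 3 lower. Those with the smallest p were Polrmt, the mitochondrial RNA polymerase, at 0.24 ± 0.09 (limma adjusted p = 0.232), Ogdh of the citric acid cycle at -0.22 ± 0.07 (adjusted p = 0.158), Mrps28 at -0.30 ± 0.14 (adjusted p = 0.317), Timmdc1 at -0.29 ± 0.15 (adjusted p = 0.353), Etfb at -0.37 ± 0.18 (adjusted p = 0.334) and Pprc1, a PGC-1-related coactivator, at 0.36 ± 0.14 (adjusted p = 0.228).

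In FVB tumors the smallest p in Het against WT was for Mrpl4 of the mitochondrial ribosome (0.37 ± 0.10, limma adjusted p = 0.137), and Mrpl4 was also first in that list in Homo against WT (0.37 ± 0.10, adjusted p = 0.237). Ppara, the lipid-sensing nuclear receptor, had 1.01 ± 0.31 in Het (adjusted p = 0.173) and 0.61 ± 0.31 in Homo (adjusted p = 0.547), both against WT. First in their lists in Het against WT were also Dhodh (0.25 ± 0.10), Ndufaf4 (-0.36 ± 0.12), Fastkd2 (-0.41 ± 0.14) and Pcx (0.61 ± 0.35), with adjusted p of 0.181 to 0.47. In Homo against WT they were Sqrdl (-1.19 ± 0.41), Ndufaf4 (-0.25 ± 0.12), Rrm2b (-0.87 ± 0.33) and Pdhx (-0.38 ± 0.16), with adjusted p of 0.343 to 0.506. In Homo against Het they were Dhodh, Sdhaf4, Fastkd2, Pprc1, Pdk4 and Mrpl28, each with adjusted p of 1. The list medians lay between -0.04 and 0.06 in Het against WT, and between -0.05 and 0.03 in Homo against WT and in Homo against Het. In the livers the list of pyruvate dehydrogenase and the citric acid cycle was higher in 14 of 22 after ad-ARID1A (median 0.07). Of all genes, 9297 of 14074 lay higher there. Idh2 was first in that list at 0.52 ± 0.13 (limma adjusted p = 0.152). Groups did not overlap for 8 of its 22 genes, against 17.4% of all genes. The same held for 6 of 28 genes of mitochondrial DNA and RNA handling and 3 of 13 nuclear regulators. It held for 4 of 44 assembly factors, 1 of 12 electron carriers and feeders and 3 of 75 mitochondrial ribosome genes. Assembly factors were higher in 33 of 44 (median 0.04) and mitochondrial ribosome genes lower in 45 of 75 (median -0.03), while all genes there had a median of 0.09. Mrps33 was nearest to the threshold, at 1.09 ± 0.21 (adjusted p = 0.0784), and Atpif1 (0.53 ± 0.21), Tmem126b (0.49 ± 0.13), Polg2 (0.63 ± 0.21) and Ppara (0.38 ± 0.15) were first in the remaining lists, with adjusted p of 0.175 to 0.341.

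Promoters of the nuclear members were searched for motifs as a description, and whether motifs go with the fold changes was not tested. RefSeq promoters (250 bases before to 50 after the start, GRCm38.p6) were found for 69 of them and searched on both strands for 5 motifs. A gene was counted if any of its promoters held the motif. The NRF1 motif GCATGCGC was found for 14.5% of members (10 of 69) against 3.05% of all 27025 genes with a promoter, expressed or not. The ETS motif CCGGAAG, which GABPA binds, was found for 23.2% against 9.93%. The YY1 motif AAGATGGCG was found for 11.6% against 1.64%, and the ERR motif TCAAGGTCA for 2.9% (2 of 69) against 0.466%. The E-box CACGTG, which MYC and MAX bind, was found for 10.1% against 8.09%. No motif of the 5 contains another. The promoter of Atp5l, a membrane subunit of the ATP synthase, held 3 of the 5 motifs (NRF1, ETS in the reverse complement CTTCCGG, and E-box, with 4 matches) and is shown with its matches in capitals (chr9:44920693-44920992, minus strand, read 5′ to 3′ along the gene). A match is a description of the letters and not a bound site. Atp5l had unadjusted p under 0.05 in the mixed-strain comparison, at -0.32 ± 0.14 (limma adjusted p = 0.285).
Atp5l: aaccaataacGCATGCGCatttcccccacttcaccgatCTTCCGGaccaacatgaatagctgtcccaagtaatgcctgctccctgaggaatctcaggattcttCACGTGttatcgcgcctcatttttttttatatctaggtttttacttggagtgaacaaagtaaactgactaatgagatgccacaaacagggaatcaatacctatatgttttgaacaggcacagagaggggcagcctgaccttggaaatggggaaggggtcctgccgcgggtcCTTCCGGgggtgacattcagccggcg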

How the data were processed

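RNA sequencing values of 34 libraries in 3 tables were used. All 3 hold log2 values deposited by the authors: log2 CPM for FVB and Rag1-/- libraries, with genes at or below 1 CPM listed at 0, and values named RPKM for mixed-strain libraries that behave as log2(CPM + 1). Per the submitters' processing notes, Trim Galore, HISAT2, SAMtools and featureCounts were used with GRCm38 (mm10), versions not given. Each table was fitted across all genes with limma 3.58.1 in R 4.3.3 (lmFit, eBayes with trend), the mixed-strain one on log2(CPM + 0.5) with mean CPM of at least 0.5. The 3 FVB groups shared a fit. P-values were adjusted by Benjamini-Hochberg across the whole table, and a gene passed below 0.05. Permutation tests used scipy 1.17.1. All tests are two-sided, and errors of fold changes are standard errors. A fold change on these scales understates the change of low genes. Depth was the total that best turned 10 low values of each library into whole reads. Their fit (100% within 0.1 read) is therefore no separate check. Intervals cover the spread between libraries. Groups were taken from the genotype, strain and virus fields of the labels, and the ad-ARID1A columns, which the samples' descriptions call ad-Cre columns, were matched by title and number. The scripts were tested on simulated data.

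The members and lists were chosen with earlier results of these data known. Genes were named by rule: members that passed, the smallest p in each class and comparison, all 13 mitochondrial genes, the isoform pairs, and the smallest p of each other list. Cox7a2l and Uqcrc2 were added after their values were seen. Alternatives were the pseudocount, filters, scalings, array weights, no variance trend, a replicate block, the groups in the fit and libraries left out.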

Additional observations from a re-analysis of the deposited data

Results flagged for a closer look

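A library was listed where its distance from its neighbour was large beside the range of its group (Dixon's 95% limit), for 12 of 184 pairs of a group and a measure. Chance alone gives about 1 in 20 for values without a floor, which does not hold for FVB values listed at 0. Where all other libraries of a group are at 0, any value above 0 is listed, as for Cox7a1 in FVB Homo and WT. The entries below for Cox7a1, Ndufa4l2 and Uqcrc1 all rest on that floor. The liver groups, with 3 libraries each, were too small for this rule. In mixed-strain tumors this was Uqcrh at 54.3 CPM in Het 6, the lowest of its group. In FVB Homo it was Cox4i1 at 232 CPM and Cox7a1 at 3.23 CPM in Homo 3, both the highest of their group, and Cox6b1 at 36.3 CPM in Homo 2, the lowest. In FVB Het it was Cox6b1 at 49.5 CPM in Het 2, the highest of its group, and Cox7a1 at 0 CPM in the same library, the lowest. Uqcr11 at 52 CPM in Het 4 and Uqcrb at 25.1 CPM in Het 1 were also listed. In FVB WT it was Cox7a1 at 1.03 CPM in WT 4, Ndufa4l2 at 0 CPM in WT 2, Uqcrc1 at 0 CPM in WT 1 and mt-Nd5 at 2336 CPM in WT 3.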

How the results depend on the processing

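No member passed (0) in any of the 5 comparisons under any alternative run except array weights in FVB Het against WT, where 1 member passed, Atp5sl (0.52, limma adjusted p = 0.0232), in a fit that called 2287 genes against 4 without weights. Array weights called 101 genes in the mixed-strain tumors, 21 in FVB Homo against WT, 0 in Homo against Het and 57 in the livers, against 28, 7, 0 and 45 without. The nuclear median log2 fold change was 0.17 in FVB Het against WT without WT 1 and WT 2, against 0.05 with them, and -0.07 in the livers when each library was centred on its median, against 0.00 without centring. The cause was not tested. Leaving out each library in turn, 0 members passed, and the nuclear medians ran from -0.22 to -0.14 in the mixed-strain tumors, from 0 to 0.11 in FVB Het against WT, from 0.01 to 0.14 in Homo against WT, from -0.03 to 0.06 in Homo against Het and from -0.03 to 0.03 in the livers. The mitochondrial medians ran from -0.3 to -0.16, -0.64 to -0.22, 0.1 to 0.42, 0.38 to 0.7 and -0.14 to 0.03 in the same order. As each library was left out, fold changes that had not passed also moved, among them Ndufb11 in FVB Het against WT (0.13 to 0.26), Cox8a (0.17 to 0.35) and Atp5d (0.12 to 0.26) in Homo against WT, Uqcrq in Homo against Het (0.16 to 0.36), and Atp5g1 (-0.35 to -0.16) and Ndufs6 (0.16 to 0.31) in the livers. With the replicate number as a block, 0 members passed, the nuclear medians were -0.18, 0.05, 0.07, 0.01 and 0.00, and 75, 0, 1, 0 and 59 genes passed in that order. Of 23 same-numbered pairs of libraries, 4 deviated together with a correlation over 0.1 (range -0.2 to 0.28) and 9 correlated best with their own number, so the numbers were not taken to pair libraries.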
